A study of Mus musculus with 16 samples.

Results

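The data are 16 RNA-seq libraries from demyelinated lesions of the mouse spinal cord, and the comparison described here asks what wheel running did on both days of sampling. It is the mean of the 2 within-day differences, runners minus controls, and it used 16 of the 16 libraries of the series. All animals were C57BL/6 mice aged 8-12 weeks, and all of them had received lysolecithin, a lipid whose injection demyelinates the cord locally. The groups were lesions at day 5 from animals with a locked wheel (control, 4 libraries, label numbers 1, 2, 5 and 6), lesions at day 5 from animals with a free running wheel (exercise, 4 libraries, numbers 1, 2, 7 and 12), lesions at day 10 from controls (4 libraries, numbers 2, 3, 4 and 5) and lesions at day 10 from runners (4 libraries, numbers 13, 17, 18 and 19). No unlesioned group was analysed here. Lesions were cut from frozen cord by laser microdissection, and the small amounts of RNA were amplified before poly-A selected, strand-specific sequencing. The labels do not say that libraries of a group came from separate animals, so the p-values below measure the spread between these libraries only.

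In a lysolecithin lesion, phagocytes (resident microglia and monocyte-derived macrophages) clear myelin debris in the first days, oligodendrocyte precursors multiply and enter the lesion, and new oligodendrocytes then wrap the bare axons. Ppargc1a encodes PGC1a, a transcriptional coactivator that drives mitochondrial biogenesis and is induced in muscle by exercise, and the study's title places it in the oligodendrocyte lineage. A running effect that is the same on both days would be seen in genes that respond to exercise whatever the stage of repair, and averaging the days pools the libraries of both. In bulk tissue such as this, fewer cells of a type and less RNA per cell cannot be told apart.

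The libraries held 8125981 to 13930582 counted reads, and 15096 of 46078 annotated genes passed the filter on low counts and were tested. Levels are given as CPM, read counts scaled to library size with TMM factors. Oligodendrocyte, astrocyte, microglial, macrophage, endothelial and neuronal markers were all present, while red cell and skeletal muscle markers were near 0, with 1 of 7 and 1 of 9 of these genes tested. Runners had fewer counted reads than controls: 8125981 to 10930385 against 11204380 to 13930582 at day 5, without overlap, and 9773137 to 11089749 against 10714317 to 12696777 at day 10 (exact two-sided permutation test within days over 4900 arrangements, p = 0.0049, adjusted p = 0.0147 over 3 library measures, smallest p possible 0.000408). The share of reads from mt-Rnr2, the mitochondrial large ribosomal RNA, was 8.06 to 10.3% in day 5 controls and 10.9 to 12.9% in day 5 runners, with no overlap. At day 10 it was 8.81 to 12.6% in controls and 8.51 to 12.3% in runners (mean difference over both days 1.37 points, exact permutation p = 0.106, adjusted p = 0.159). Exercise day 5 replicate 2 stood apart with the fewest reads and the fewest detected genes.

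In the mean of both days 22 of 15096 genes passed an adjusted p of 0.05 (0.146%; edgeR's quasi-likelihood test with Benjamini-Hochberg adjustment), 13 higher in runners (0.0861%) and 9 lower (0.0596%). DESeq2 called 323 genes for the same comparison, 166 higher and 157 lower, all 22 among them. The genes that rose included the histone demethylase Kdm5c, the chromatin remodeller subunit Arid1b, the complement receptor C5ar1, the leukotriene enzyme Alox5 and the actin regulators Fmnl1 and Cap1. Those that fell included the acyl-CoA-binding protein gene Dbi, the cytochrome c oxidase subunit gene Cox6c, the splicing factor gene Sf3b6, the transcription cofactor gene Lmo4 and the endothelial junction gene Cldn5. The called changes were modest, between 0.33 and 1.75 in size on the log2 scale, and 1 of the 22 was a predicted gene without a name. On GRCm38 the genes named first lie at chrX:152233020-152274535 (Kdm5c), chr17:4994332-5347656 (Arid1b), chr7:16246743-16259540 (C5ar1), chr6:116410077-116461178 (Alox5), chr15:35925886-35938246 (Cox6c), chr12:4817608-4827658 (Sf3b6), chr3:144188530-144205220 (Lmo4) and chr16:18776847-18778260 (Cldn5). A further 121 genes had an adjusted p between 0.05 and 0.10.

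The days taken alone gave 0 called genes at day 5 (0%), where 1513 genes (10.0%) had an unadjusted p under 0.05 and DESeq2 called 80, and 29 called genes at day 10 (0.192%; 16 higher, 13 lower; 1935 genes, 12.8%, with an unadjusted p under 0.05), where DESeq2 called 227. Leaving out 1 library moved the 29 to 0 without control day 5 replicate 2, control day 10 replicate 2 or 3, or exercise day 10 replicate 17 or 19. It gave 1 without exercise day 10 replicate 13, 2 without exercise day 5 replicate 12 or control day 10 replicate 5, and 133 without exercise day 10 replicate 18. It gave 12 to 19 without control day 5 replicate 1 or 5, exercise day 5 replicate 1 or 7, or control day 10 replicate 4. In the mean of both days 2053 genes (13.6%) had an unadjusted p under 0.05. No gene passed in the test of the difference between the days with edgeR, although 1376 (9.11%) had an unadjusted p under 0.05 and DESeq2 called 18. Of the 22 genes called in the mean, 7 were also called at day 10 and 0 at day 5. All 22 had the same sign on both days, and for 18 the unadjusted p was under 0.05 on each day. Choosing genes by the mean of the days favours both, so neither is separate support from the single days. The test of the difference between the days had an unadjusted p under 0.05 for 6 of the 22, against 9.11% of all genes.

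The count of calls changed with covariates and with single libraries left out. With either the log2 total count or the mt-Rnr2 share of each library as a covariate, 0 genes passed, with 1439 and 1569 genes at an unadjusted p under 0.05. The signs of all 22 stayed as they were, which choosing them by a small p in these same libraries favours. The log2 fold changes moved both ways: with the log2 total count and the mt-Rnr2 share, Dbi had −0.71 and −0.67, Cldn5 −1.08 and −0.73, Alox5 0.98 and 0.81, and C5ar1 0.47 and 0.47. Why the calls were lost was not tested. Leaving out 1 library left 0 genes without control day 5 replicate 5, control day 10 replicate 5, exercise day 10 replicate 13 or exercise day 10 replicate 19. It left 1 gene without control day 5 replicate 2 or exercise day 5 replicate 7, 2 genes without exercise day 5 replicate 12, and 4 genes without control day 10 replicate 2 or control day 10 replicate 3. It left 11 genes without control day 5 replicate 1 and 9 genes without exercise day 5 replicate 1. Without exercise day 10 replicate 17, the library that the authors' own day 10 table leaves out, 80 genes passed (32 higher, 48 lower), and without exercise day 10 replicate 18 100 did (47 higher, 53 lower); all 22 genes were among both. Without exercise day 5 replicate 2, the library that stood apart, 21 passed, 14 of the 22 among them.

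**Figure D1:**
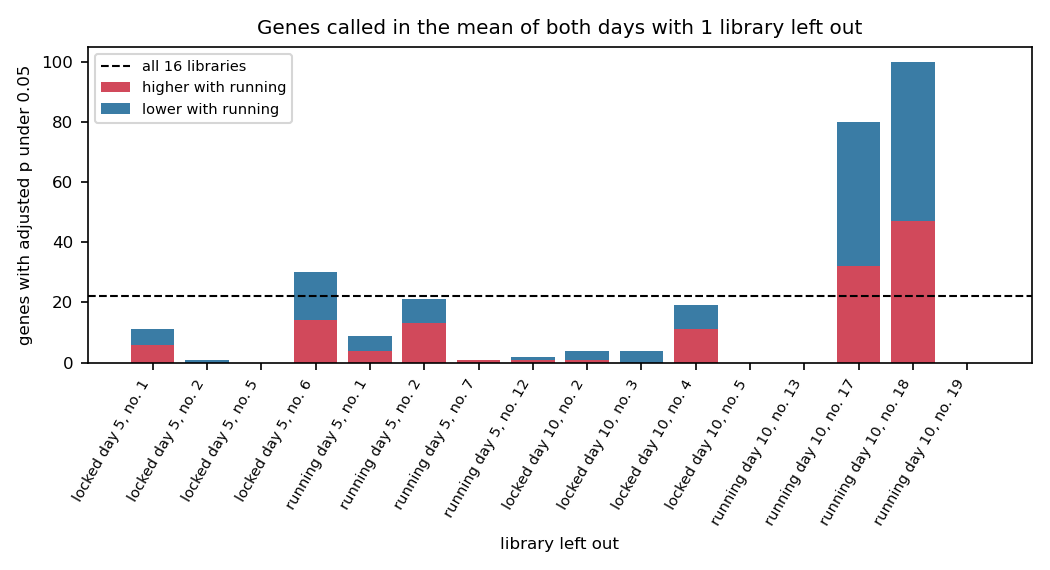
Number of genes with an adjusted p under 0.05 (edgeR) in the mean of both days when 1 library is left out, stacked by direction; the dashed line is the 22 genes called with all 16 libraries. Counts run from 0, for 4 of the libraries, to 100 without exercise day 10 replicate 18.

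Across all tested genes the 2 days shared little. The log2 fold changes of day 5 and day 10, which have no library in common, correlated weakly across genes (Pearson's r 0.04, Spearman's rho 0.08) and genes are not independent replicates. The same sign occurred on both days in 8074 of 15096 genes (53.5%), with 4315 higher on both (28.6%) and 3759 lower on both (24.9%). An unadjusted p under 0.05 on both days was found for 231 genes (1.53%), of which 189 had the same sign (1.25%; 102 higher and 87 lower) and 42 the opposite sign (0.278%). The split rested in part on single libraries: it was 143 to 133 without exercise day 10 replicate 13, 155 to 71 without exercise day 5 replicate 1 and 231 to 70 without exercise day 10 replicate 18. It was 209 to 7 with the log2 total count as a covariate and 119 to 25 with the mt-Rnr2 share. The 189 genes made up 12.5% of the day 5 list and 9.77% of the day 10 list. Of all genes, 12.8% had an unadjusted p under 0.05 at day 10 and 10% at day 5, counting either sign. Among the genes with a day 5 p under 0.05, 930 (61.5%) kept their sign at day 10, and among those with a day 10 p under 0.05, 1180 (61.0%) had that sign at day 5. All 4 runners lay above or below all 4 controls in the same direction on both days for 49 genes (0.325%; 25 higher, 0.166%, and 24 lower, 0.159%), and in opposite directions for 7 (0.0464%). Of the 22 called genes, 11 were among the 49, which choosing them by the mean of the days also favours. On single days the groups did not overlap for 7.29% of genes at day 5 and 5.88% at day 10.

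**Figure D2:**
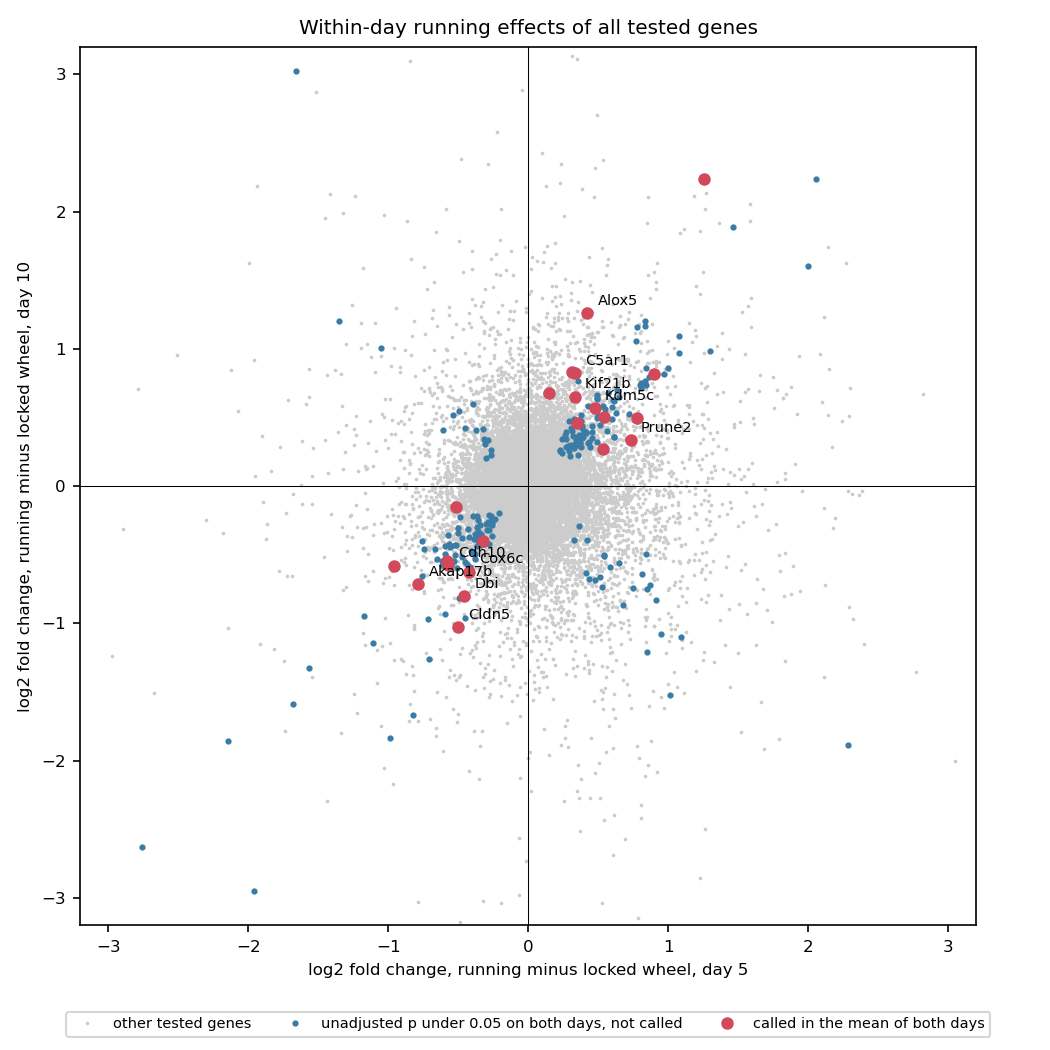
Log2 fold change of each tested gene, runners minus controls, at day 5 (horizontal) against day 10 (vertical); red, the 22 genes called in the mean of both days; blue, 213 further genes with an unadjusted p under 0.05 on both days; grey, the rest, with 25 genes outside the axes. The grey cloud has no visible slope, and the red points lie in the quadrants of equal sign.

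The promoters of leading genes are shown here so that the sequences upstream of genes that moved in either direction can be set side by side. For 2 higher genes and 1 lower gene with small p whose upstream window lies outside the transcribed span, the 250 bases before the most upstream RefSeq start (GRCm38.p6) read 5′ to 3′ on the gene's strand as follows, with motif matches in capitals. Their positions are chr19:16955868-16956117 (plus strand) for Prune2, chr2:132030325-132030574 (minus) for Rassf2 and chr12:4817358-4817607 (plus) for Sf3b6.

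Prune2: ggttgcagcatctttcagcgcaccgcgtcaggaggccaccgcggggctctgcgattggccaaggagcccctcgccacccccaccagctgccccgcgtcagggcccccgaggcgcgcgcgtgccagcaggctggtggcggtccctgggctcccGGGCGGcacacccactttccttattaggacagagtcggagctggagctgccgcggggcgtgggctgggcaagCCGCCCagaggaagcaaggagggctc
Rassf2: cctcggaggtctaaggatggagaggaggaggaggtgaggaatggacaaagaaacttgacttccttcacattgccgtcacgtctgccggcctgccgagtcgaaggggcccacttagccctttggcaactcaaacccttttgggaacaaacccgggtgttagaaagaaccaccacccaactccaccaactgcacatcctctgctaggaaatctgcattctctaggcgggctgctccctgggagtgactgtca
Sf3b6: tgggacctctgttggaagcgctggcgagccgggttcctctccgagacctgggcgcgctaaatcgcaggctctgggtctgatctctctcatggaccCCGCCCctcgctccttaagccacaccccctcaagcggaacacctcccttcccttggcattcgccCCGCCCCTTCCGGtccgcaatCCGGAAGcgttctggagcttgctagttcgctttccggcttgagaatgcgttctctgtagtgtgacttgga

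The capitals mark a GC box (GGGCGG) on each strand in Prune2 and GC boxes with 2 ETS sites (CCGGAAG) in Sf3b6, where one ETS site directly follows a GC box. None of the 7 motifs searched on both strands matched in Rassf2. The windows of 18 of the 22 called genes were searched, 11 higher and 7 lower. GC boxes were in 9 of the 18 (5 higher, 4 lower genes), against 33.0% of 27024 promoters and 58.3% of those of tested genes. ETS sites were in 3 of 18 (Dock2, Cap1 and Sf3b6; 7.07% and 13%). The NRF1 palindrome (3.86% of all promoters), bound by a factor that works with PGC1a on mitochondrial genes, the ERR site TCAAGGTCA (0.366%), the cyclic AMP response element TGACGTCA (1.60%), the E-box CACGTG (6.04%) and the glucocorticoid response element (0.377%) matched in none of the 18 windows, which says only that these letters are not there.

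The genes of acyl-CoA handling and mitochondrial respiration held the call with the smallest p. Dbi (ENSMUSG00000026385) encodes acyl-CoA-binding protein, which carries long-chain acyl-CoA esters in the cytosol and, as diazepam-binding inhibitor, is secreted by glia. Dbi stood at 68.7, 72.1, 94.2 and 86.1 CPM in day 5 controls and at 55.5, 65.4, 56.1 and 56.9 CPM in day 5 runners. At day 10 it stood at 91.1, 98.3, 102 and 112 CPM in controls and at 58.6, 46.2, 70.1 and 56.2 CPM in runners. Every runner lay below every control of its day. Dbi fell by 0.63 on the log2 scale in the mean of both days (SE 0.091, adjusted p = 0.0241, edgeR), with −0.46 at day 5 and −0.80 at day 10 (unadjusted p of the difference between the days 0.0737).

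Cox6c, a nuclear-encoded subunit of cytochrome c oxidase, the last complex of the respiratory chain, was at 169, 167, 182 and 159 CPM in day 5 controls against 124, 149.6, 117 and 115 CPM in day 5 runners. Its day 10 levels were 126, 133, 169 and 172 CPM in controls against 104, 107, 85.7 and 93.3 CPM in runners, again without overlap. Cox6c fell by 0.52 on the log2 scale (SE 0.084, adjusted p = 0.0241, edgeR). Acox3, a peroxisomal oxidase of branched-chain acyl-CoAs, moved the other way, from 30.7, 36.2, 32.7 and 42.0 CPM in day 5 controls to 50.3, 50.5, 54.8 and 49.3 CPM in day 5 runners. At day 10 it was at 48.9, 52.4, 51.8 and 45.7 CPM in controls and 55.6, 64.4, 58.1 and 61.9 CPM in runners. The Acox3 groups were separate on both days, and the log2 fold change was 0.40 (SE 0.076, adjusted p = 0.0473, edgeR), 0.53 at day 5 and 0.27 at day 10. Acaca, the acetyl-CoA carboxylase that starts fatty acid synthesis, did not pass but had separate groups on both days (log2 fold change 0.42, adjusted p = 0.0651). Acaca was named for a small p on each day, which favours separate groups. Multi-mapping reads are not requested in the recorded counting command, so genes with near-identical processed copies, such as Dbi, Cox6c and Sf3b6, are given as uncertain in absolute level.

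The rest of the respiratory chain did not pass. Among 47 nuclear-encoded subunits tested, Cox6c was the 1 called gene, beside 0.146% of all genes called. Of the 47, 28 had a lower and 19 a higher mean (52.2% of all genes were higher), and 16 were lower on both days. Their median log2 fold change was −0.03, beside 0.01 for all genes, and 6 of 47 were lower at an unadjusted p under 0.05, beside 6.23% of all genes. The days differed here too, with 29 of the 47 higher at day 5 (median 0.05) and 38 lower at day 10 (median −0.10). Proteins of the mitochondrial ribosome, which translate the mitochondrially encoded subunits, leaned lower on both days: 48 of 63 were lower in the mean and 34 on both days, beside 24.9% of all genes. Their median was −0.11 at day 5 and −0.13 at day 10, 14 of 63 were lower at an unadjusted p under 0.05, and 0 passed. Mrpl3, the member with the smallest p, stood at 177, 186, 249.9 and 174 CPM in day 5 controls and at 124, 139, 147 and 144 CPM in day 5 runners. Its day 10 levels overlapped (144 to 164 CPM in controls, 111 to 161 CPM in runners), and its log2 fold change was −0.35 (adjusted p = 0.0949). The 9 mitochondrially encoded transcripts tested had a median of 0.35 at day 5 and 0.03 at day 10, with mt-Nd5 at 0.53 in the mean (adjusted p = 0.0515). Among 19 genes of the PGC1a axis 0 passed, 9 were higher and 10 lower; Nrf1, a transcription factor of nuclear-encoded mitochondrial genes, had 0.33 (adjusted p = 0.287), Esrra, the orphan receptor that PGC1a coactivates, −0.30 (adjusted p = 0.322) and Tfam, which packages mitochondrial DNA, −0.20 (adjusted p = 0.444).

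Ppargc1a itself did not pass in the mean of both days. It was at 3.26, 5.75, 4.10 and 4.14 CPM in day 5 controls and 6.50, 9.63, 5.40 and 8.84 CPM in day 5 runners. At day 10 the order was the other way round, with 7.67, 10.5, 8.66 and 13.2 CPM in controls and 6.71, 3.61, 8.60 and 6.70 CPM in runners. The groups overlapped on each day, the log2 fold changes of 0.81 and −0.64 averaged to 0.09 (adjusted p = 0.88), and the test of the difference between the days had an unadjusted p of 0.00157 (adjusted p = 0.422, edgeR).

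**Figure D3:**
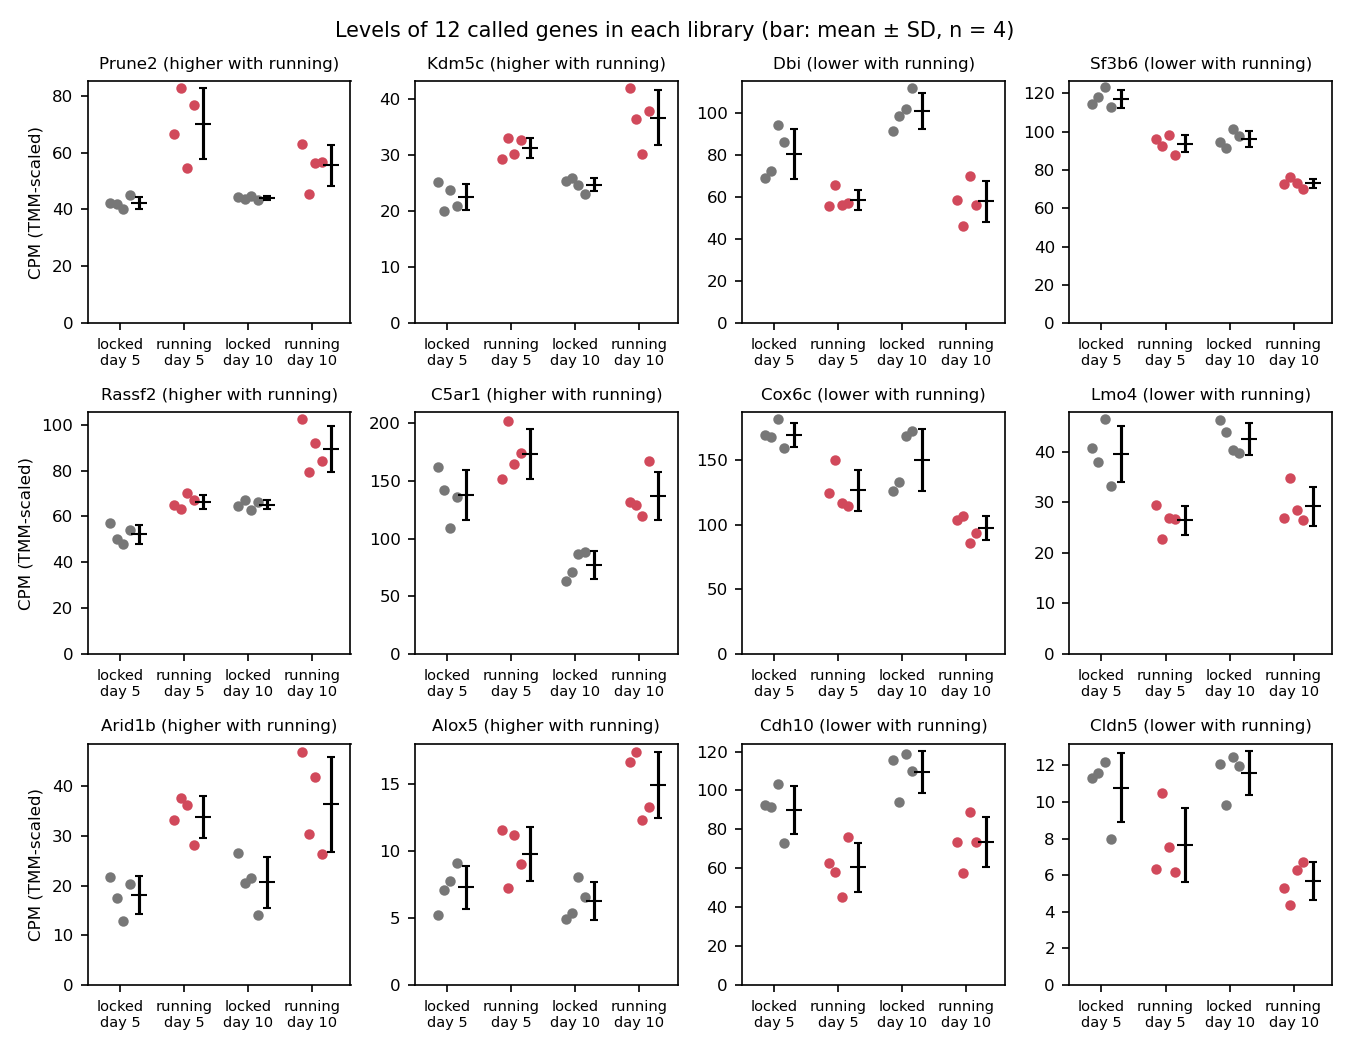
Level of 12 called genes in each library, in CPM on axes that start at 0; grey points are controls (locked wheel), red points runners, and the black marks give the mean and SD of the 4 libraries. In Dbi, Sf3b6, Cox6c, Lmo4, Prune2, Kdm5c and Rassf2 the runners of each day lie wholly on one side of that day's controls.

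Several single called genes encode proteins that act on chromatin or RNA. The chromatin list held 1 called gene of 35 and the splicing factor list 0 of 28, beside 0.146% of all genes. Kdm5c and Sf3b6, both called, are in neither list. Kdm5c, an X-linked demethylase of lysine 4 on histone H3, was at 25.1, 20.1, 23.8 and 20.9 CPM in day 5 controls and 29.2, 32.9, 30.2 and 32.6 CPM in day 5 runners. The day 10 levels of Kdm5c were 25.3, 25.8, 24.7 and 23.1 CPM in controls and 42.0, 36.5, 30.2 and 37.8 CPM in runners. The groups were separate on both days, and Kdm5c rose by 0.52 on the log2 scale (SE 0.086, adjusted p = 0.0241, edgeR), 0.47 at day 5 and 0.57 at day 10. Arid1b, a DNA-binding subunit of the BAF (SWI/SNF) remodelling complex, went from 21.8, 17.5, 12.9 and 20.2 CPM in day 5 controls to 33.2, 37.5, 36.3 and 28.1 CPM in day 5 runners. At day 10 the ranges overlapped slightly, with 26.6, 20.5, 21.6 and 14 CPM in controls and 46.9, 30.4, 41.8 and 26.3 CPM in runners. Arid1b had the largest increase among the named called genes, 0.86 (SE 0.149, adjusted p = 0.0312, edgeR), nearly equal on the 2 days (0.90 and 0.81).

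The list of chromatin remodellers and histone enzymes had 24 of 35 members higher, 18 of them on both days beside 28.6% of all genes, and Arid1b was its 1 called member. Like the other lists, it was chosen with earlier results of these data known, so its counts only describe it. At an unadjusted p under 0.05, 10 of 35 were higher and 0 lower, beside 7.37% and 6.23% of all genes. The next members by p were Kmt2c, a methyltransferase of histone H3 lysine 4 (0.33, adjusted p = 0.0934), Arid1a (0.24, adjusted p = 0.107) and Kmt2d (0.55, adjusted p = 0.121). The list's median was 0.096 at day 5 and 0.071 at day 10; in the mean it was 0.10, and 0.046 when the trend with gene length, described below, was removed. Med12, a Mediator subunit, and Pan3, part of a poly-A shortening complex, had separate groups on both days and did not pass (0.79, adjusted p = 0.0651, and 0.52, adjusted p = 0.0558). Both were named for a small p on each day, which favours separate groups (found for 0.325% of all genes). Zfp180, a zinc finger protein gene, rose from 11.7, 10.7, 10.5 and 12.9 CPM to 20.7, 17.7, 16.3 and 23.7 CPM at day 5 and from 15.3, 13.5, 12.6 and 10.6 CPM to 22, 16.3, 19 and 16 CPM at day 10, without overlap (0.64, SE 0.117, adjusted p = 0.0473, edgeR).

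Sf3b6 encodes a small subunit of SF3b, the part of the U2 particle that sits at the branch point of an intron. Its day 5 levels were 115, 118, 124 and 113 CPM in controls and 96.0, 92.4, 98.3 and 88.0 CPM in runners. Its day 10 levels were 94.5, 91.7, 102 and 97.6 CPM in controls and 72.7, 76.1, 73.2 and 70.1 CPM in runners. The groups did not overlap on either day, and Sf3b6 fell by 0.36 on the log2 scale (SE 0.057, adjusted p = 0.0241, edgeR), with −0.32 at day 5 and −0.40 at day 10. Of 28 splicing factors tested, 0 passed, and 15 were higher and 13 lower in the mean. The days differed, with 17 lower at day 5 (median −0.04) and 26 higher at day 10 (median 0.09). On both days 9 were higher and 0 lower, beside 28.6% and 24.9% of all genes.

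Lmo4, a LIM-only cofactor that bridges transcription factors, was at 40.7, 38.0, 46.6 and 33.3 CPM in day 5 controls and 29.5, 22.7, 26.9 and 26.8 CPM in day 5 runners. By day 10 Lmo4 was at 46.3, 43.9, 40.3 and 39.7 CPM in controls and 26.9, 34.7, 28.6 and 26.6 CPM in runners. These groups too were separate, and Lmo4 fell by 0.56 on the log2 scale (SE 0.092, adjusted p = 0.0241, edgeR). Gpn3, a GTPase needed for nuclear import of RNA polymerase II, fell by 0.77 (adjusted p = 0.0473) and was separate at day 5 only, 13.3 to 19.5 CPM in runners against 27.8 to 38.0 CPM in controls. Ipo11, an importin, fell by 0.33 (adjusted p = 0.0473), with −0.51 at day 5 and −0.15 at day 10 (unadjusted p of the difference between the days 0.011). Akap17b, of the A-kinase anchoring family, was at 14.9, 16, 18 and 14.7 CPM in day 5 controls and 10.3, 9.50, 8.10 and 8.93 CPM in day 5 runners, and was separate at day 10 too (12.1 to 19.2 CPM against 6.38 to 11.7 CPM). It fell by 0.75 on the log2 scale (SE 0.140, adjusted p = 0.0473, edgeR).

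C5ar1, Alox5, Dock2, Fmnl1 and Cap1 are single calls whose products act in phagocytes or on actin, and the estimates for C5ar1, Alox5, Dock2 and Fmnl1 were larger at day 10. C5ar1, the receptor for complement fragment C5a that draws phagocytes to a lesion, was at 163, 142, 109.7 and 136 CPM in day 5 controls and 152, 203, 164 and 174 CPM in day 5 runners, with overlap. At day 10 it was at 63.6, 71.2, 86.7 and 88.1 CPM in controls and 132, 129, 120.0 and 167 CPM in runners, without overlap. C5ar1 rose by 0.58 (SE 0.100, adjusted p = 0.0312, edgeR), 0.33 at day 5 and 0.82 at day 10 (unadjusted p of the difference 0.0235). Alox5, the lipoxygenase that makes leukotrienes, was at 5.25, 7.08, 7.75 and 9.09 CPM in day 5 controls and 11.6, 7.22, 11.2 and 9.02 CPM in day 5 runners, which overlapped. Its day 10 groups were separate, with 4.94, 5.36, 8.10 and 6.55 CPM in controls and 16.7, 17.4, 12.3 and 13.3 CPM in runners. It rose by 0.84 (SE 0.156, adjusted p = 0.0473, edgeR), and the difference between the days had an unadjusted p of 0.0149.

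Dock2, an activator of the GTPase Rac in blood-derived cells and microglia, overlapped at day 5 (67.1 to 83.2 CPM in controls, 71.3 to 90.4 CPM in runners) and was separate at day 10 (66.3 to 78.5 CPM against 96.0 to 130.2 CPM). Its log2 fold change was 0.41 in the mean (SE 0.079, adjusted p = 0.0473, edgeR), from 0.15 at day 5 and 0.68 at day 10. Of the 22 genes Dock2 had the smallest p in the test of the difference between the days, 0.00378 unadjusted. Fmnl1, a formin of leukocytes that lengthens actin filaments, was separate on both days, 35.6 to 42.0 CPM against 42.3 to 54.0 CPM and 31.0 to 35.5 CPM against 38.1 to 75.5 CPM (0.57, SE 0.111, adjusted p = 0.0484, edgeR). Cap1, which recycles actin monomers, stood at 305, 239, 201 and 306 CPM in day 5 controls and 351, 422, 379 and 378 CPM in day 5 runners. At day 10 Cap1 stood at 189.8, 226, 215 and 235 CPM in controls and 335, 361, 231 and 300.1 CPM in runners, where 1 runner lay within the controls (0.52, SE 0.102, adjusted p = 0.0484, edgeR). Rassf2, of the Ras-association domain family, was at 57.1, 50.0, 47.8 and 54.1 CPM in day 5 controls and 64.8, 63.3, 70.1 and 67.2 CPM in day 5 runners. Its day 10 levels were 64.7, 67.1, 62.7 and 66.1 CPM in controls and 103, 79.4, 91.8 and 84.2 CPM in runners, so that it was separate on both days (0.40, SE 0.068, adjusted p = 0.0294, edgeR).

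The lists of phagocyte markers held no called member. Homeostatic microglial genes were higher for 13 of 14 members in the mean but for 6 on both days (median −0.02 at day 5 and 0.52 at day 10), and activated phagocyte genes for 15 of 18, with 6 on both days. Of all genes, 52.2% were higher in the mean and 28.6% on both days. The microglial median in the mean was 0.22, beside an SD of 0.31 between libraries of a group in the list's mean log2 level. Markers of monocyte-derived macrophages leaned the other way, with 4 of 13 higher and 9 lower in the mean. On both days 2 of them were higher and 3 lower (median 0.04 at day 5 and −0.27 at day 10). Mertk, a receptor that takes up apoptotic cells and myelin, had 0.36 in the mean (adjusted p = 0.0558, edgeR). Most of it came from day 10, with 0.11 at day 5 and 0.61 at day 10 (unadjusted p of the difference between the days 0.00335). Itgam, an integrin chain of myeloid cells, had 0.65 in the mean (adjusted p = 0.0601). The summed level of the 14 microglial markers was 9387 to 12341 CPM in day 5 controls, 8170.5 to 10983 CPM in day 5 runners, 8883 to 11708 CPM in day 10 controls and 9964 to 18389 CPM in day 10 runners. The 13 macrophage markers tested summed to 7759 to 14691, 8293 to 14199, 6491 to 7493 and 5499.6 to 8221.5 CPM in the same order, no marker of either list was at 0 in all libraries, and the part of these cells in the changes of C5ar1, Alox5 and Dock2 was not tested. The list of proinflammatory mediators had 9 of 16 members higher, C5ar1 and Alox5 among them, and 7 lower. Ccl7, a monocyte chemoattractant, was the lower gene nearest to the threshold (−1.25, adjusted p = 0.0515), with 6.43, 4.49, 3.64 and 5.07 CPM in day 10 runners against 14.6, 15.2, 14 and 18.7 CPM in day 10 controls, and overlap at day 5.

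Cldn5 and Cdh10, both genes of cell junctions, fell in runners. Cldn5, the claudin that seals the blood-brain barrier, was at 11.3, 11.6, 12.2 and 8.00 CPM in day 5 controls and 6.32, 10.5, 7.52 and 6.17 CPM in day 5 runners. Its levels at day 10 were 12.1, 9.82, 12.5 and 12.0 CPM in controls and 5.31, 4.39, 6.30 and 6.70 CPM in runners. It overlapped at day 5, was separate at day 10, and fell by 0.77 on the log2 scale in the mean (SE 0.149, adjusted p = 0.0484, edgeR). It was the 1 called member of 16 endothelial markers, beside 0.146% of all genes called. Of the 16, 14 were lower in the mean and 8 on both days, beside 24.9% of all genes lower on both days. The endothelial median was 0.01 at day 5 and −0.61 at day 10. These markers summed to 446 to 579 CPM in day 5 controls, 458 to 531 CPM in day 5 runners, 566 to 624 CPM in day 10 controls and 404 to 559 CPM in day 10 runners, so the sums overlapped at day 5 and were separate at day 10, and none was at 0 throughout. Whether endothelial content had a part in the fall of Cldn5 was not tested. Cdh10, a type II cadherin, was at 92.4, 91.4, 103 and 73.0 CPM in day 5 controls and 62.5, 57.9, 45.2 and 76.1 CPM in day 5 runners, where 1 runner overlapped. At day 10 Cdh10 was at 116, 93.9, 118 and 109.8 CPM in controls and 73.7, 57.6, 88.9 and 73.4 CPM in runners, and its fall was nearly equal on both days (−0.57 and −0.58; mean −0.57, SE 0.109, adjusted p = 0.0473, edgeR).

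The remaining named genes that rose were Prune2 and Kif21b, both long transcripts. Prune2, which encodes a large protein with a BCH domain, was at 42.2, 41.7, 40.0 and 44.9 CPM in day 5 controls and 66.4, 82.9, 54.6 and 76.8 CPM in day 5 runners. The day 10 levels were 44.2, 43.5, 44.9 and 43.4 CPM in controls and 63.0, 45.6, 56.5 and 56.8 CPM in runners. Controls were tightly grouped and all runners lay above them on each day; Prune2 rose by 0.53 (SE 0.088, adjusted p = 0.0241, edgeR), 0.73 at day 5 and 0.33 at day 10. Kif21b, a kinesin of neurons and immune cells, was separate at day 10 (47.9 to 70.0 CPM against 89.4 to 105 CPM) and overlapped at day 5 (0.49, SE 0.095, adjusted p = 0.0473, edgeR). It was the 1 called member of 22 motor and spectrin genes, beside 0.146% of all genes called. The 20 neuronal markers had a median of 0.65 at day 5 and −0.08 at day 10, and the 8 motor neuron genes 1.28 and 0.11, with 0 called in either list. The median of the neuronal list turned from 0.22 to −0.23 with the mt-Rnr2 share as a covariate.

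Genes of the oligodendrocyte lineage showed no called change in the mean of both days. Of the 14 precursor genes 7 were higher and 7 lower in the mean (median −0.02). On both days 1 of them was higher and 6 were lower, beside 28.6% and 24.9% of all genes. Olig2, the lineage transcription factor, had the smallest p among 14 precursor genes, with 89.0, 111, 136 and 131 CPM in day 5 controls and 81.3, 109.6, 89.6 and 89.8 CPM in day 5 runners, and 128, 125, 127 and 137 CPM in day 10 controls and 103, 104, 115 and 76.6 CPM in day 10 runners. Its log2 fold change was −0.35 (adjusted p = 0.126, edgeR), −0.34 at day 5 with overlap and −0.37 at day 10 without. Of the 20 myelin genes 16 were lower in the mean and 7 on both days (median 0.07 at day 5 and −0.32 at day 10); Mog, on the outer surface of myelin, had −0.35 (adjusted p = 0.339) and Cnp −0.36 (adjusted p = 0.247). Mbp had −0.06 (adjusted p = 0.886), Myrf, which switches on myelin genes, 0.20 (adjusted p = 0.613), and Pdgfra, the growth factor receptor of precursors, −0.18 (adjusted p = 0.332).

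Other lists chosen for the comparison held no gene called in the mean of both days, and several differed between the days. Beside the counts below, 52.2% of all genes were higher in the mean. On both days 28.6% of all genes were higher and 24.9% lower. Interferon response genes were lower for 18 of 21 members, 11 on both days, with medians of −0.005 at day 5 and −0.44 at day 10, and their median turned from −0.31 to 0.07 with the log2 total count as a covariate. Proliferation genes were higher for 20 of 24 in the mean and 7 on both days, but lower for 16 of 24 at day 5 (median −0.06) and higher for 21 at day 10 (median 0.32); Mki67, a marker of cycling cells, had 0.69 (adjusted p = 0.0931), 0.40 at day 5 and 0.99 at day 10. Glycolysis genes were higher for 15 of 20, 9 on both days, led by Hk2, the inducible hexokinase (0.47, adjusted p = 0.139). Voltage-gated channel genes were higher for 19 of 23, 11 on both days, with a median of 0.70 at day 5 and 0.02 at day 10, and their median turned from 0.21 to −0.04 with the mt-Rnr2 share as a covariate. Fkbp5, a chaperone induced by glucocorticoids, had −0.16 at day 5 and 1.05 at day 10 (mean 0.45, adjusted p = 0.0948, unadjusted p of the difference 3.71e-05). Igf2, a growth factor of meningeal and vascular cells, had −0.20 and −3.04 (mean −1.62, adjusted p = 0.0944, unadjusted p of the difference 0.00225). Both were called at day 10 alone (edgeR, adjusted p = 0.0374 for Fkbp5 and 0.048 for Igf2). Igf1, made by microglia in lesions, had −0.18 at day 5 and −0.17 at day 10 (adjusted p = 0.559), and Bdnf, the neurotrophin, 0.72 and −1.52 (adjusted p = 0.728).

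**Figure D4:**
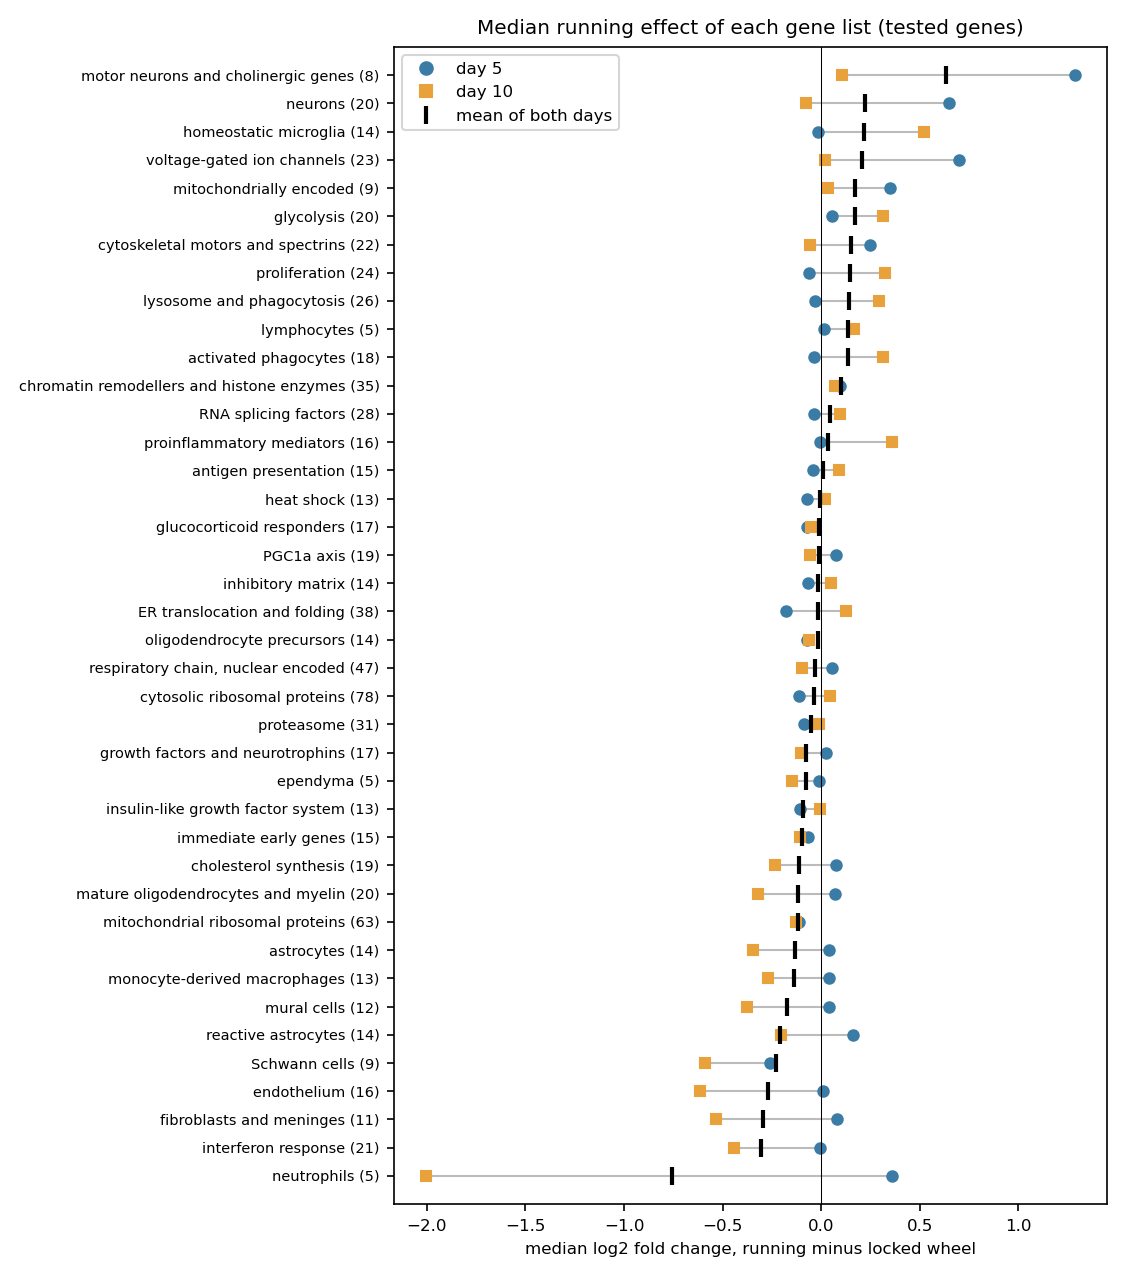
Median log2 fold change, runners minus controls, of the tested members of each list with 5 or more (number in parentheses), at day 5 (blue circles), day 10 (orange squares) and in the mean of both days (black ticks). Mitochondrial ribosomal proteins (−0.11 and −0.13) and chromatin genes (0.10 and 0.07) have nearly the same median on both days, while motor neuron genes (1.28 and 0.11), endothelium (0.01 and −0.61) and neutrophil genes lie apart.

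The genes were also described by length, a property that the contrast did not use. Called higher genes had a median exon length of 7110 bases (2570 to 12600), called lower genes 3530 bases (1115 to 10051) and all tested genes 3815 bases. Among genes with an unadjusted p under 0.05 on both days the 102 higher ones had a median of 5060.5 bases and the 87 lower ones 2803 bases. With all tested genes in 5 bins by length, the median log2 fold change went from −0.03 in the shortest (54 to 2066 bases) through −0.01, 0.01 and 0.02 to 0.05 in the longest (6642 to 116825 bases), and it went up from the shortest to the longest bin on each day. Of the called genes, 7 higher and 2 lower were in the longest bin and 0 higher and 3 lower in the shortest. In single libraries the mean deviation of the longest from the shortest bin was −0.22 to −0.02 in day 5 controls and −0.07 to 0.09 in day 5 runners, and −0.05 to 0.12 in day 10 controls and 0.01 to 0.12 in day 10 runners, so the groups overlapped on both days. Mitochondrial ribosomal protein genes are short (median 1848 bases) and chromatin genes long (median 12068 bases), and the part of length in their medians was tested only by removing the trend, after which they were −0.10 and 0.05. With the trend removed, 18 genes passed, 14 of the 22 among them, and called genes kept their signs. The median GC content was 50.7% in called higher genes, 46.8% in called lower genes and 49.3% in all tested genes.

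**Figure D5:**
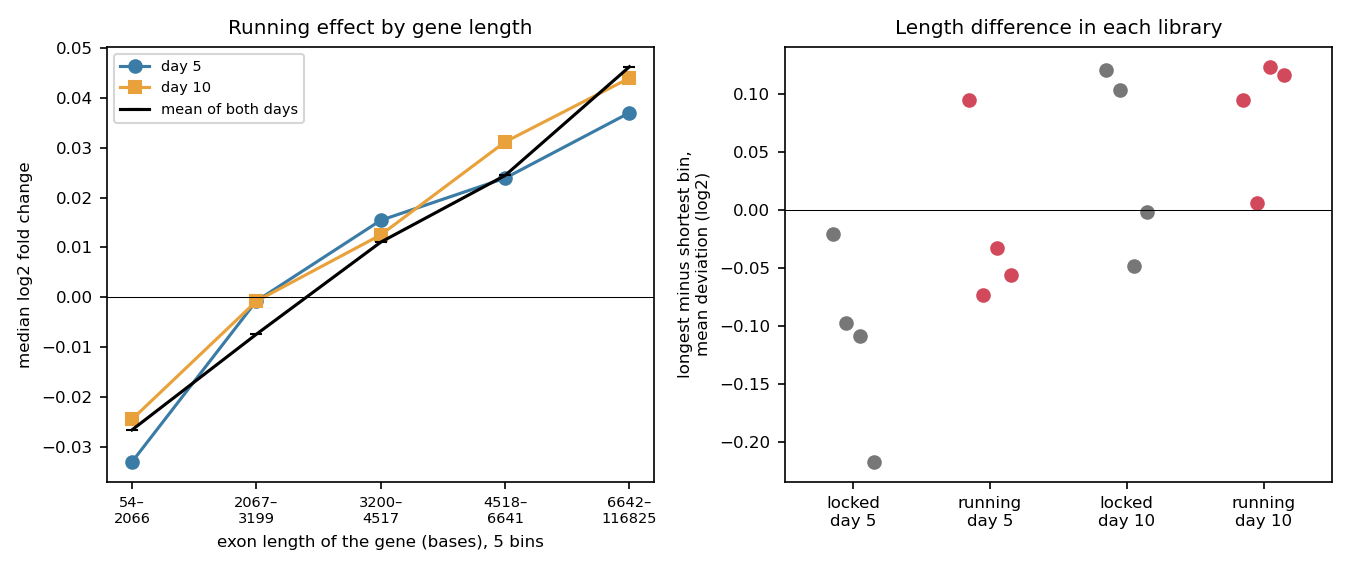
Left, median log2 fold change (runners minus controls) of tested genes in 5 bins of exon length, for day 5 (circles), day 10 (squares) and the mean of both days (black line); right, for each library, the mean log2 deviation from the all-library mean of the longest bin minus that of the shortest, grey for controls and red for runners. Both days go up with length, from −0.03 and −0.02 in the shortest bin to 0.04 and 0.04 in the longest, while single libraries of the groups overlap.

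The authors' deposited tables, made separately for each day and without exercise 17 at day 10, list 271 genes with an adjusted p under 0.05 at day 5 and 179 at day 10. Of these, 9 genes are on both lists of the authors' deposited tables, all 9 with the same sign, which is 3.32% of the first list and 5.03% of the second. For scale, 15096 genes were tested here, and whether 9 is more than lists of these sizes share by chance was not tested. The named ones are Cox6c, Dbi, Lmo4, Sf3b6 and Cdh10, all lower and all among the 22, and Scand1 (lower), Dync1h1 and Neat1 (higher), which did not pass here in the mean of both days. Of the 22 genes, 14 are on the day 5 list of the authors' deposited table and 13 on its day 10 list. Those tables were made from the same libraries, apart from exercise 17 at day 10. Genes chosen here by the mean of the days are therefore favoured on both lists, and the overlap is not separate support. For Dbi the authors' deposited tables give −0.46 (adjusted p = 0.0322) at day 5 and −0.72 (adjusted p = 0.000111) at day 10. Scand1, a SCAN domain gene, had the largest difference of them in the mean of both days, −2.69 (SE 0.529, adjusted p = 0.0515, edgeR), from 6.36, 7.33, 16.4 and 6.90 CPM to 0.361, 2.28, 0.964 and 1.93 CPM at day 5 and from 12.6, 3.36, 15.6 and 2.37 CPM to 0.652, 3.90, 0.709 and 0.203 CPM at day 10. At these low levels the day 10 groups overlapped. Papss1, which makes the sulfate donor for sulfation, was separate on both days and did not pass (−0.37, adjusted p = 0.0558). Papss1 was named for a small p on each day, which favours separate groups.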

How the data were processed

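Raw counts were deposited by the authors: per the file headers, featureCounts 1.5.0-p1 counted same-strand reads per Ensembl GRCm38 gene, and per the submitters' processing notes reads were aligned with TopHat2 2.0.10 and Bowtie 1.1.2. The exon length per gene is from the same deposited table. Log2 fold changes and adjusted p-values of the authors' deposited day 5 and day 10 tables (DESeq2 1.12.4 per the submitters' processing notes) were copied and not recomputed. Sample groups, with the day of the exercise libraries, are from the labels' characteristics.

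The test on these counts used edgeR 4.0.16 under R 4.3.3 (filterByExpr with a minimum count of 10 and a minimum total of 15, TMM, robust quasi-likelihood fit, 1 mean per group, 12 residual degrees of freedom, common biological coefficient of variation 23.6%). The standard error of a log2 fold change is its size divided by the square root of F. Benjamini-Hochberg adjustment ran over all 15096 genes, with 0.05 as threshold. The procedure was tested on simulated data with planted changes larger than most of those called here and with no difference between the days. How it does with changes as small as most of the called ones was not tested. Alternatives were other scalings, filters and models, DESeq2 1.42.0, limma 3.58.1 (voom), covariates for depth and mt-Rnr2 share, a replicate block, leaving out each library, and a length offset added after seeing the data.

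Genes named are the called genes, the 8 per direction whose larger within-day p was smallest among genes with p under 0.05 and one sign on both days, leading list members and 14 fixed genes; Neat1 was named from the authors' list after its values were seen, and predicted genes were counted only. The 42 lists and the genes were chosen with earlier results of these data known. Depth limits the precision of genes at a few CPM. No column of other samples was used. One promoter window is not reported here.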

Additional observations from a re-analysis of the deposited data

Results flagged for a closer look

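In 104 groups of 4 libraries checked (the called genes and the measures of each library), 3 had 1 library whose gap to the nearest of the others made up more of the group's range than Dixon's 95% critical value allows; chance alone flags about 1 group in 20. Dbi was at 65.4 CPM in exercise day 5 replicate 2 and at 55.5 to 56.9 CPM in the other runners of day 5. Gpn3 was at 38.0 CPM in control day 5 replicate 5 and at 27.8 to 28.7 CPM in the other controls of day 5. Exercise day 5 replicate 2 had 18608 detected genes, against 19405 to 19478 in the other runners of that day.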

How the results depend on the processing

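For the mean of both days, 22 genes passed, and 17 to 33 passed with DESeq2's size factors, without mitochondrially encoded genes, with other filters, with limma-voom, without robust estimation or with the length trend removed. The count was 40 with plain library sizes, 323 with DESeq2 (166 higher, 157 lower), 11 with an additive model, and 0 with the mt-Rnr2 share or the log2 total count as covariate; the cause was not tested. Leaving out 1 library gave 0 to 100. At day 5 DESeq2 gave 80 and leaving out 1 library 0 to 1. At day 10 DESeq2 gave 227, the mt-Rnr2 covariate 18 and the depth covariate 10, and leaving out 1 library 0 to 133. For the difference between the days DESeq2 gave 18 and leaving out 1 library 0 to 1. The 189 genes of one sign became 119 with the mt-Rnr2 covariate and 131 to 265 with 1 library left out. None of the 22 called genes reversed in any of the 29 settings, which choosing them by a small p in these same libraries favours. In all 16 leave-outs 0 of them stayed called. With the label number as a replicate block at each day (limma-voom, estimated correlation 0.16), 25 genes passed, 21 of the 22 among them. Numbers are shared only at day 5, where same-numbered libraries had correlations of 0.07 and −0.03. The labels do not state a pairing, and so few pairs cannot decide whether there was one.

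The fixed genes Ppargc1a, Gfap, Snap25, Mbp and Aif1, which were not called, had 20 reversals of sign in the mean of both days. Ppargc1a became −0.081 with the mt-Rnr2 covariate and −0.051 with the depth covariate, and ranged from −0.0049 to 0.18 with 1 library left out. Gfap became −0.060 and −0.029 with these covariates and ranged from −0.056 to 0.080. Snap25 became −0.65 with the mt-Rnr2 covariate and ranged from −0.34 to 0.45. Mbp became 0.050 with the depth covariate and ranged from −0.15 to 0.0031. Aif1 became 0.24 with the depth covariate and 0.0013 with the length trend removed, and ranged from −0.12 to 0.074. Scalings moved the median of all genes by at most 0.01 on the log2 scale.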
